A study of Mus musculus with 12 samples.

Results

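CTCF sites were read at 9 genes by which liver takes up glucose, stores it as glycogen, releases it again and handles fructose: Slc2a2, Slc2a1, Gckr, Khk, Gys2, Gbe1, Ppp1r3b, Ppp1r3c and Pygl. The genes were chosen by name, out of 21887 protein-coding genes, and a site counted for a gene when it overlapped the gene body or 20 kb on either side of it (mm10). Overlapping peaks of the 6 lists (1 bp or more) formed 76061 sites, and 56 of them fell to the 9 genes, none to more than 1 gene. CTCF, a zinc finger protein found at insulators and at the anchors of chromatin loops, had been mapped by ChIP-seq (sequencing of immunoprecipitated chromatin) in snap-frozen whole livers of wild-type male C57BL6/Ncrl mice aged 3 to 4 months and kept on normal chow. One group was fed ad libitum, and its livers were collected at ZT16 (hours since the light came on). The other went without food for 24 h, and collection was at ZT13. Each group had 3 ChIP libraries with 1 peak list each, while the 3 input libraries of each group were not analysed here. Feeding and collection time differed together and cannot be told apart. No label names the mouse behind a library, and p-values measure only the spread between libraries, which may be technical.

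Glucose enters and leaves the hepatocyte through the transporter GLUT2, made from Slc2a2, and glycogen is built by glycogen synthase and branching enzyme and broken down by glycogen phosphorylase. Glycogen-targeting subunits bring protein phosphatase 1 to the glycogen particle, where it turns the synthase on and the phosphorylase off. Fructose is committed to metabolism by ketohexokinase. Feeding favours storage and fasting favours release. CTCF peaks mark where this protein was found on the DNA and do not measure how much of a gene was expressed.

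The fed lists held 49030 to 74950 peaks and the starved lists 23926 to 30752, and the number of reads behind them is unknown. The longest list, fed 3, held all 56 sites of the 9 genes. Of these, 13 were in no other list, as were 18811 of all 76061 sites. Of the 56 sites, fed 1 held 42 and fed 2 held 36, against 24, 18 and 22 in starved 1, 2 and 3. As a share of the 56 sites, each library came within 4 percentage points of its share of all 76061 sites: 75.0%, 64.3% and all of them in the fed lists beside 71.8, 62.4 and 97.5%, and 42.9, 32.1 and 39.3% in the starved lists beside 39.0, 30.5 and 37.8%. List length thus moved with feeding state, and its part in the results below was not tested. In whole liver, a site lost from every cell and a site held by fewer cells cannot be told apart either. CTCF peaks do not measure expression, so the labelled tissue could not be checked against markers. The marker genes of hepatocytes (15 sites called in all 3 fed libraries), Kupffer cells (6), endothelial cells (12), stellate cells (7) and cholangiocytes (1) had a starved peak at 11, 5, 11, 7 and 1 of these. Over all sites called in all 3 fed libraries, 31837 of 44909 had one. The cell types were not compared by a test.

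Of the 56 sites, 16 (28.6%) were called in all 6 libraries, and 29.1% of all sites were. All 3 fed libraries called 35 of the 56. Of these 35, 25 had a starved peak in 1 to 3 libraries and 10 had none, or 28.6% (exact Clopper-Pearson 95% interval 14.6 to 46.3, which covers counting error only). The background over all sites called in all 3 fed libraries was 29.1%, close to the share at these genes. All 3 starved libraries called 16 of the 35 (45.7%), against 49.3% of such sites in the genome. No site of the 9 genes was called in starved livers alone, and only 76 of all 76061 sites were. Without fed 2 the share was 35.7% at the 9 genes and 39.5% over all sites. When only peaks above the median score of all lists (30.4) were kept, 11 of 23 sites (47.8%) had no starved peak above it, against 35.6% of all sites. Such a site can still have starved peaks below that score. The Gys2 site on chromosome 6, 142465890 to 142466377, had them in all 3 starved libraries. This cut sets scores of different lists side by side, and the difference between the 2 shares was not tested.

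Whether a fed site of these genes had a starved peak went with its place in the fed lists. Within each list, peaks were ranked by the authors' peak score and given a percentile, with the best peak at 100. The 10 sites with no starved peak had mean fed percentiles between 20.7 and 55.6, with a median of 37.0. The 16 called in all 6 libraries lay between 62.6 and 96.8, with a median of 81.0, and the 2 sets of sites did not overlap. Over all sites the medians were 33.4 and 81.1, and there the 2 sets did overlap, since sites with no starved peak reached 69.9 and sites in all 6 libraries began at 17.5. All 17 sites of the 9 genes above a fed percentile of 60 had a starved peak, and 16 had one in all 3 starved libraries. Over the whole genome 0.7% of the sites between 60 and 80, and none of the 11733 above 80, lacked a starved peak. Percentiles from lists of different length describe a site's place in its own list and do not measure a change.

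**Figure D1:**
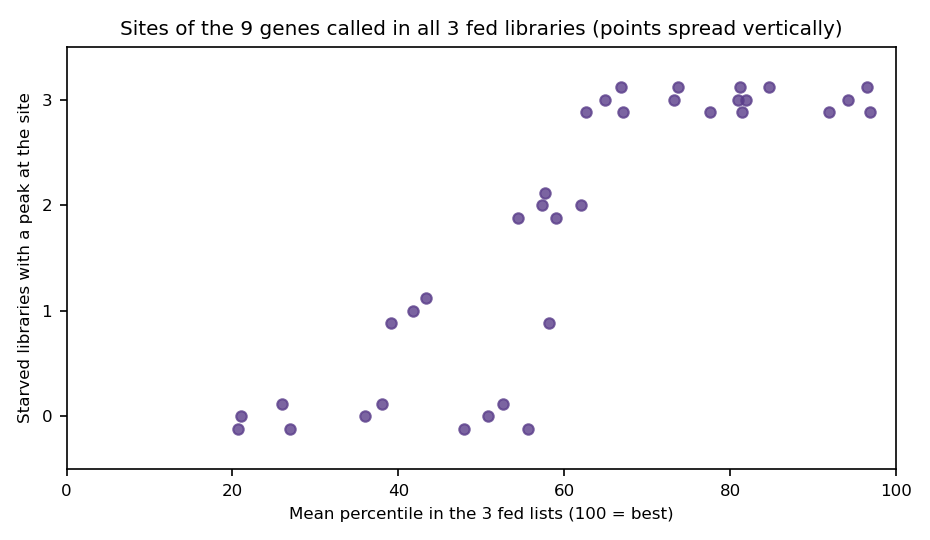
Each point is 1 of the 35 sites of the 9 genes called in all 3 fed libraries, with its mean percentile in the fed lists on the x axis and the number of starved libraries with a peak there on the y axis (small vertical offsets separate points). Sites with no starved peak reach a percentile of 55.6, and sites with a peak in all 3 starved libraries begin at 62.6.

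**Figure D2:**
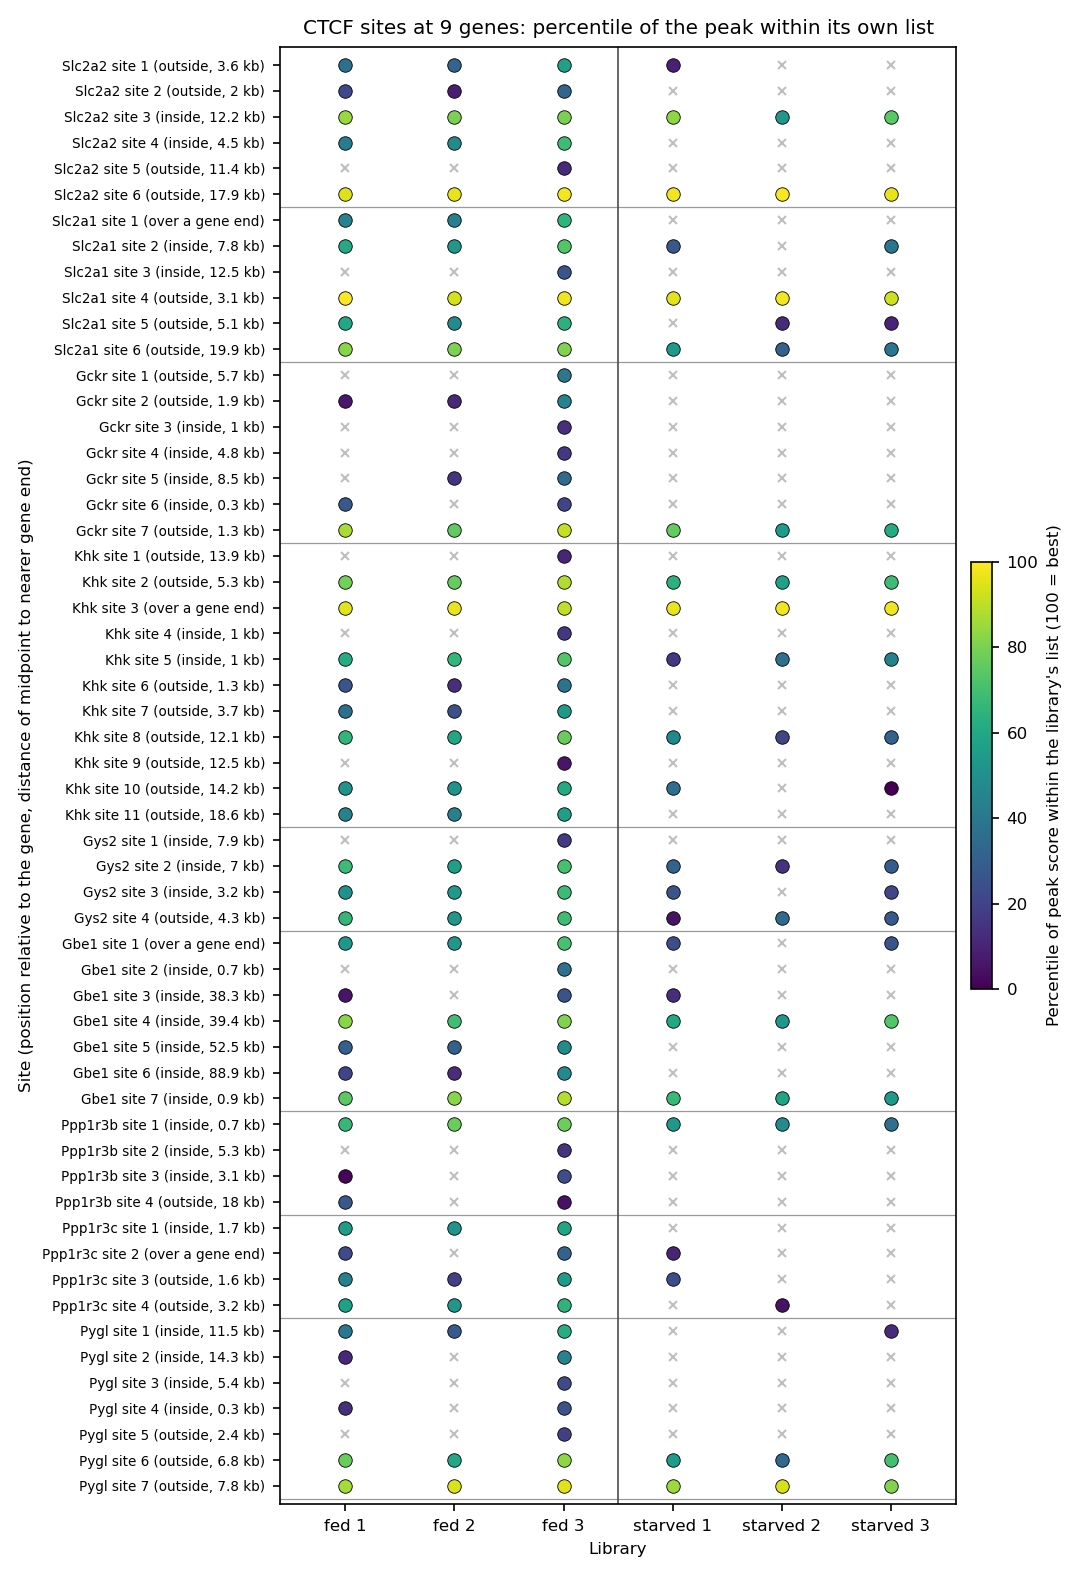
Every one of the 56 sites (rows, grouped by gene and numbered by coordinate) in each of the 6 libraries (columns). Circles are called peaks coloured by percentile within the library's own list, and grey crosses mark libraries without a peak; the brightest rows run through all 6 libraries, and most dark fed rows have crosses in the starved columns.

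Khk, ketohexokinase, which phosphorylates fructose, had the most sites of the 9 genes: 11 within a window of 49.8 kb (gene on chromosome 5, 30921436 to 30931248). The site over its start (chromosome 5, 30920449 to 30922143), was among the best-ranked peaks of every library. Its percentiles were 95.7, 96.6 and 90.4 in fed 1, 2 and 3, and 96.5, 98.0 and 98.0 in starved 1, 2 and 3. The site reaches from the last part of the neighbouring gene Emilin1 into Khk. A further site inside Emilin1 (30915581 to 30916628) had percentiles of 78.6, 76.3 and 88.0 in fed and 63.7, 57.2 and 68.9 in starved libraries.

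The promoter sequences that overlapped a site are printed here. Those of Khk, Slc2a1 and Gbe1 lay inside their site. Of the Ppp1r3c promoter only the part from 36736605 to 36736712 did. RefSeq (GRCm38.p6, the same build as mm10) had a promoter entry for 7 of the 9 genes, all but Gys2 and Ppp1r3b, and the 250 bases before the start were used. Of these 7, Khk, Slc2a1, Gbe1 and Ppp1r3c overlapped a site, and Slc2a2, Pygl and Gckr did not. They were searched on both strands for CCNNNAGNNGGC, a loose form of the core of the CTCF motif, in which N is any base. Capitals mark a match, and of Khk the bases after the match are not shown because they lie inside the outer bounds of the gene:
Khk, chr5:30921309-30921446, plus strand: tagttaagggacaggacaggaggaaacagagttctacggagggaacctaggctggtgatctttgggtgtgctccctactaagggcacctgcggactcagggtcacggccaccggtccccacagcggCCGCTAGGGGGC
Slc2a1, chr4:119108495-119108744, plus strand: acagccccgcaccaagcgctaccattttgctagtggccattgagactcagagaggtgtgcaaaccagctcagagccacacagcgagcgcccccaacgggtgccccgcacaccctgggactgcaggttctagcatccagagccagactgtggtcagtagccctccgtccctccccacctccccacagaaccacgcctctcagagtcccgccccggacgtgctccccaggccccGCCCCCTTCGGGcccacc
Gbe1, chr16:70313699-70313948, plus strand: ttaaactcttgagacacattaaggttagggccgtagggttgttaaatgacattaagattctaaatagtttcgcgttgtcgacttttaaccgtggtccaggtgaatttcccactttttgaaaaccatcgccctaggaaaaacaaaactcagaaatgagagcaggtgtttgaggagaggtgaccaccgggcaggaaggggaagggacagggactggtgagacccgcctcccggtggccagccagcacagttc
Ppp1r3c, chr19:36736605-36736854, minus strand: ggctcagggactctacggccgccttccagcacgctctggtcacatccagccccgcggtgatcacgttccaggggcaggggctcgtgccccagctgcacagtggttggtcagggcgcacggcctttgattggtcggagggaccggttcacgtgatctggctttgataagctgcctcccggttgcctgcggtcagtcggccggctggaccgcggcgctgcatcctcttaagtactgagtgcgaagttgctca

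The Khk promoter held 1 match, CCGCTAGGGGGC, from 124 to 113 bases before the start in the RefSeq entry and at the outer bound of the gene (chromosome 5, 30921435 to 30921446). The called peak covered it in all 6 libraries. Its centre lay 68, 248 and 164 bp from the midpoint of the peak in fed 1, 2 and 3, and 75, 14 and 81 bp in starved 1, 2 and 3. The Slc2a1 promoter held 1 match on the opposite strand, 18 to 7 bases before the start, which read as CCCGAAGGGGGC in the direction of the motif. There the peaks of fed 1 and fed 3 covered it, and that of fed 2 did not. The Gbe1 and Ppp1r3c promoters held no match. Of 32851 promoters of this length in the table, 7.17% held the motif, with 25.3% of those over a site called in all 6 libraries, 12.9% of those over a site with a peak in all 3 fed and none of the starved lists, and 4.19% of those over no site. A match is a description of the letters and not a measured binding site.

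The other Khk sites were weaker. The site near the far end of the gene (30929944 to 30930615) was also called in all 6 libraries, at 61.7, 66.0 and 72.9 in fed and 15.7, 37.0 and 43.5 in starved lists, as was 1 in the neighbouring gene Cgref1 (30943013 to 30943646), at 65.3, 59.4 and 76.7 and at 46.6, 20.3 and 31.2. A site over the start of Cgref1 (30945026 to 30945830) was missed by starved 2. Khk also had 3 fed-only sites, a term used here for sites with a peak in all 3 fed lists and none in the starved ones. The first lay 1.3 kb outside the gene (30932316 to 30932708), at 26.3, 13.4 and 38.4. The next lay inside Cgref1 (30934805 to 30935154), at 36.2, 24.4 and 53.5, and the last 18.6 kb outside the gene (30949697 to 30950042), at 44.6, 43.1 and 55.9. The other 3 were called in fed 3 alone, among them 1 just inside the gene (30922197 to 30922609) at 16.1. Since Emilin1 and Cgref1 lie in the window, these sites belong to a neighbourhood and not to Khk alone.

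**Figure D3:**
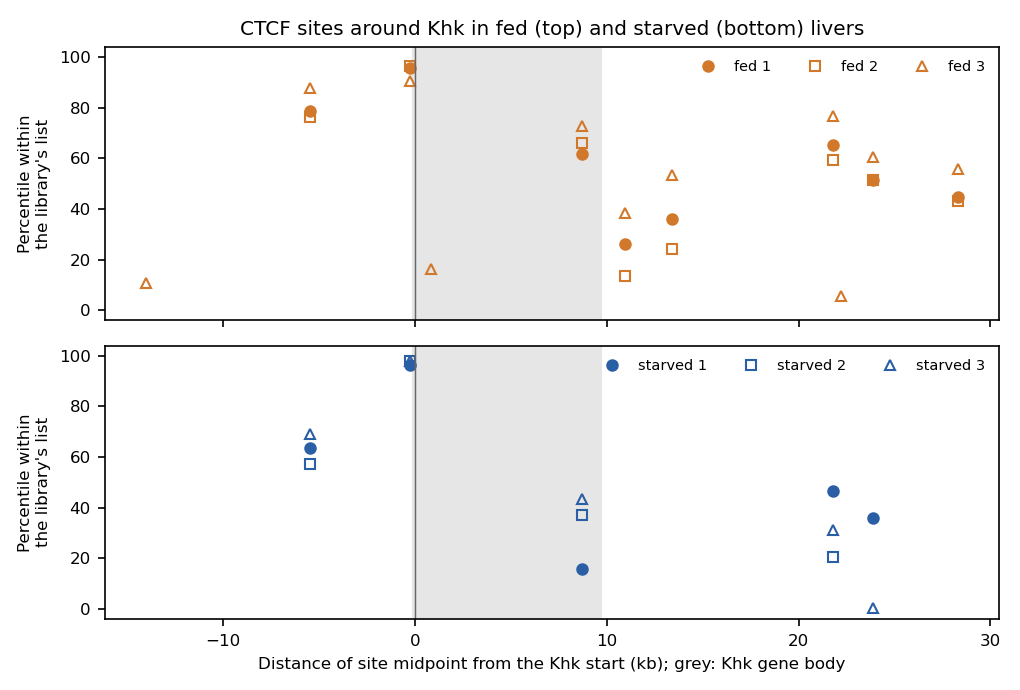
Percentile of each called peak within its library's list (y axis) against the distance of the site's midpoint from the Khk start in kb (x axis), with fed libraries above and starved libraries below and the Khk gene body in grey. The site at the start stays above 90 in all 6 libraries, while the 3 fed-only sites, all on the right of the gene, have no starved points.

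Gckr, the gene of a protein that regulates the phosphorylation of glucose in liver, had 7 sites, of which only 1 was called in any starved library. That site lay 1.3 kb outside the gene end (chromosome 5, 31328276 to 31328964), with percentiles of 87.0, 75.7 and 91.2 in fed and 76.1, 54.5 and 61.0 in starved lists. A site in the neighbouring gene Fndc4, 2.2 kb before the Gckr start (31295147 to 31295672), was called in all 3 fed libraries at 6.5, 11.4 and 44.1 and in no starved one. The other 5 were called in 1 or 2 fed libraries, including 1 just inside the gene end (31326880 to 31327172) at 27.4 in fed 1 and 19.9 in fed 3.

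Slc2a2, the gene of the low-affinity transporter GLUT2, had its strongest site 17.9 kb outside the gene (chromosome 3, 28745760 to 28746769). The percentiles there were 94.7, 96.5 and 98.4 in fed and 97.7, 99.2 and 96.3 in starved lists. A second site, inside the gene (28709655 to 28710511), was also called in all 6 libraries, at 84.5, 79.8 and 79.9 and at 83.0, 53.3 and 73.9. Both of these also lie in the long noncoding RNA gene 1700112D23Rik. Around the start, the data held only weaker peaks: 1 site 2.0 kb before it (28695727 to 28695980), fed-only at 22.3, 8.3 and 32.4, and 1 site 3.6 kb before it that starved 1 kept at 9.3. The other fed-only site lay inside the gene (28723549 to 28724101) at 41.5, 47.9 and 68.6.

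Slc2a1 makes GLUT1, a glucose transporter found in most cell types. Its site over the promoter printed above (chromosome 4, 119108241 to 119108748) was called in all 3 fed libraries, at percentiles of 43.8, 43.6 and 65.1, and in no starved library. That site also touches Gm52706, a long noncoding RNA gene. The strongest site lay 3.1 kb beyond the far end (119140044 to 119140798), at 99.2, 93.5 and 97.7 in fed and 95.5, 98.3 and 92.5 in starved lists. A site 19.9 kb outside (119157012 to 119157510) was called in all 6 libraries too, at 82.1, 80.3 and 81.0 in fed and at 54.2, 30.8 and 39.3 in starved lists. Of the remaining 3 sites, 2 were called in 2 starved libraries each and 1 in fed 3 alone. At both transporter genes the best-ranked site thus lay beyond the far end of the gene, and the sites over or before the start were called in at most 1 starved library.

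Gys2, the liver glycogen synthase, had 4 sites, of which all 3 sites called in every fed library kept a starved peak. The best of them lay inside the gene (chromosome 6, 142465890 to 142466377), at 68.0, 56.1 and 70.6 in fed and 31.1, 14.4 and 28.7 in starved lists. A site 4.3 kb outside (142477123 to 142477804) was also in all 6 libraries, at 66.1, 52.7 and 69.0 in fed and at 4.9, 34.2 and 27.9 in starved lists. No Gys2 site lay within 1 kb of a gene end.

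Gbe1, the branching enzyme, is the longest of the 9 genes, and its 7 sites lay in a window of 295.8 kb. The site over its promoter (chromosome 16, 70313644 to 70314248) was called at 53.0, 53.0 and 70.9 in fed 1, 2 and 3, and at 23.0 in starved 1 and 25.4 in starved 3, with no peak in starved 2. Its 2 sites in all 6 libraries lay 39.4 kb inside the gene (70353131 to 70353486; 82.2, 69.3 and 81.1 in fed, 59.9, 52.8 and 73.0 in starved lists) and 0.9 kb inside the far end (70568380 to 70569325; 74.8, 82.2 and 89.0, then 67.2, 58.3 and 54.0). Of the 2 fed-only sites, both inside the gene, the first (70366336 to 70366600) stood at 30.2, 29.7 and 48.1. The other (70402717 to 70402970) stood at 20.7, 12.6 and 47.6. A peak 0.7 kb inside the start (70314458 to 70314899) was called in fed 3 alone, at 36.9.

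The phosphatase-targeting genes differed in their strongest site. Ppp1r3b, which makes the main liver subunit GL, had 1 site in all 6 libraries, 0.7 kb inside a gene end (chromosome 8, 35375945 to 35376779), at 66.4, 77.3 and 77.6 in fed and 52.9, 47.5 and 36.9 in starved lists. Its other 3 sites were called in 1 or 2 fed libraries alone. Ppp1r3c, which makes the subunit PTG, was the only one of the 9 genes with no site in all 6 libraries. Its site over the gene start (chromosome 19, 36736438 to 36736712) was called in fed 1, fed 3 and starved 1, at 22.3, 31.3 and 9.9. The best-ranked site of Ppp1r3c in the libraries that called it lay inside the gene (36734679 to 36735208), at 55.1, 52.5 and 59.3 in fed lists, and no starved library called it. The highest fed percentile among its sites was at 36739540 to 36740090, 3.2 kb before the start, with a mean of 58.2, and starved 2 alone kept it, at 4.7.

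Pygl, the liver glycogen phosphorylase, had 7 sites, and the 2 called in all 6 libraries lay side by side before the gene start. The better one (chromosome 12, 70234984 to 70235957) stood at 86.6, 94.2 and 95.1 in fed and 85.4, 93.6 and 81.0 in starved lists. The other (70234221 to 70234755) stood at 77.0, 59.9 and 82.9 and at 54.5, 33.4 and 70.0. A peak 0.3 kb inside the start (70227281 to 70227560) was called in fed 1 and fed 3 alone, at 13.9 and 25.2. Of the remaining 4 sites, 1 had a starved peak, in starved 3.

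Counted per gene, the mean number of sites was higher in fed than in starved livers at each of the 9 genes. Khk had 8, 8 and 11 sites in fed 1, 2 and 3 and 5, 4 and 5 in starved 1, 2 and 3, a mean of 9.0 ± 1.73 against 4.67 ± 0.58 (SD, n = 3 each). Slc2a2 had 5, 5 and 6 against 3, 2 and 2, Slc2a1 5, 5 and 6 against 3, 3 and 4, and Gbe1 6, 5 and 7 against 4, 2 and 3. Gckr had 3, 3 and 7 against 1, 1 and 1, and Ppp1r3c 4, 3 and 4 against 2, 1 and 0. At these 6 genes every starved count lay below every fed count, and each had p = 0.1 in a two-sided exact permutation test, which with 3 against 3 libraries can give no smaller value. Among all 21887 protein-coding genes the same held for 48.8%, and for 0.0% the counts ran the other way. The groups overlapped at Gys2 (3, 3 and 4 against 3, 2 and 3; exact permutation p = 0.6), Pygl (5, 3 and 7 against 2, 2 and 3; p = 0.2) and Ppp1r3b (3, 1 and 4 against 1, 1 and 1; p = 0.4). The median difference, starved minus fed, was −2.67 sites at the 9 genes and −1.67 over all protein-coding genes. Windows ran from 44.9 to 295.8 kb at the 9 genes, with a median of 57.2 kb over all protein-coding genes. The part of window length was not tested.

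Per length of window, Khk was the densest of the 9 genes, with 18.07 ± 3.48 sites per 100 kb in fed and 9.37 ± 1.16 in starved livers (SD, n = 3 each). Every library had more sites per length there than at any other of the 9 genes. Ppp1r3c (8.17 ± 1.29), Slc2a1 (7.77 ± 0.84), Slc2a2 (7.57 ± 0.82), Pygl (6.5 ± 2.6), Gckr (6.19 ± 3.30), Ppp1r3b (5.09 ± 2.92) and Gys2 (3.68 ± 0.64) followed in fed livers, each with a range that overlapped those of its neighbours in this order. Gbe1 came last at 2.03 ± 0.34, below every Gys2 library. The median over all protein-coding genes was 4.30 in fed and 1.91 in starved livers.

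With lists of equal length the difference in site number was no longer seen. When the 23926 best peaks of each list were kept, the number in the shortest list, the fed libraries held 18, 22 and 19 of the 56 sites and the starved libraries 19, 18 and 19. The cut itself gives every list the same number of peaks, so these counts cannot show whether the total number of sites differed. Khk then had 4, 5 and 4 sites in fed and 4, 4 and 4 in starved libraries, and Pygl, Ppp1r3b and Gckr had the same number in all 6. None of the 9 genes kept fed and starved counts apart, and the exact permutation p was 1.0 for each. Among protein-coding genes 1.16% had every starved count below every fed count in such lists, and 0.539% had every one above. All 17 sites of the 9 genes found in the 3 fed lists of equal length were found in at least 1 starved list. Over all sites, 261 of the 21705 found in the 3 fed lists of equal length were in no starved list.

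**Figure D4:**
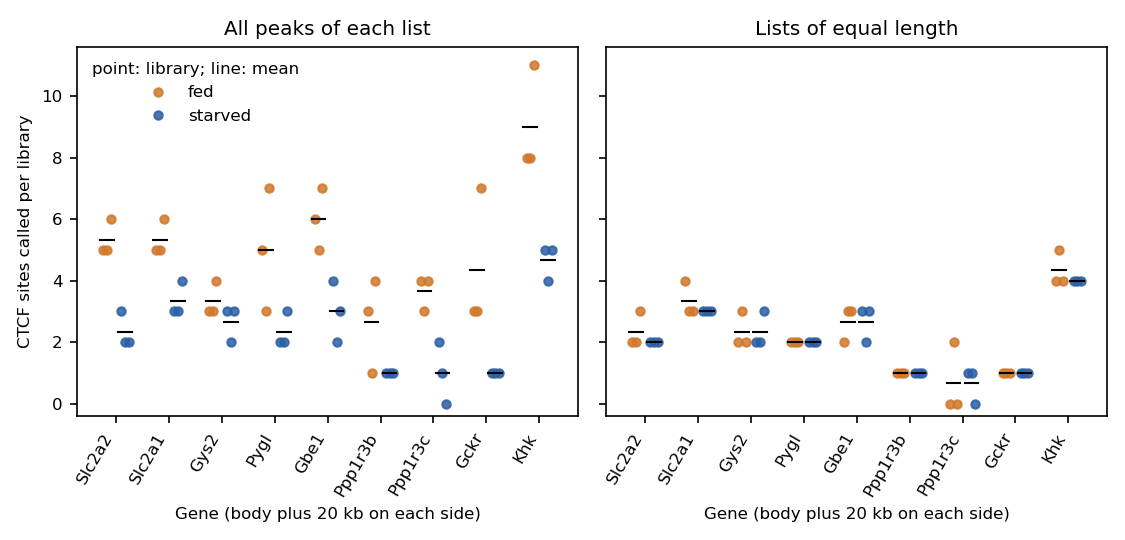
CTCF sites per library (points, with the mean as a line) at each of the 9 genes in fed and starved livers, for all peaks (left) and for lists of equal length (right). On the left the starved points lie below the fed points at 6 genes; on the right the groups meet or overlap at all 9.

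Whether a shared site ranked higher or lower after starvation could be tested in the lists of equal length. There 19289 sites were found in all 6 lists, among them 14 sites of 8 of the 9 genes, all but Ppp1r3c. Ranks were turned into normal scores, which are 0 in the middle of a list and rise toward its best peak, and compared with limma over all 19289 sites. None of the 14 sites passed an adjusted p of 0.05 (Benjamini-Hochberg, lowest 0.388), and 1 had an unadjusted p under 0.05. Over all sites limma called 3 (0.0156%), 2 higher after starvation (0.0104%) and 1 lower (0.00518%), and 9.66% had an unadjusted p under 0.05. That count of 3 was 0 without fed 1, fed 2, starved 1 or starved 3.

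The site at the Khk start showed the largest difference of the 14. It was the 2420th, 1660th and 7205th peak of the fed lists and the 1071st, 475th and 611th of the starved lists, so every starved rank was better than every fed rank, as it was for 7.26% of all tested sites. The difference in normal score was 0.81 (SE 0.30, 95% interval 0.19 to 1.43, n = 3 each), with an unadjusted limma p of 0.0136 and an adjusted p of 0.388, which ran from 0.315 to 0.691 over the alternatives. Fed 3 held the lowest of the ranks, and without it the difference was 0.52.

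At the strongest Slc2a2 site the ranks were 2965, 1744 and 1204 in fed and 716, 190 and 1108 in starved lists, and these groups did not overlap either. The normal score was 0.57 higher after starvation (SE 0.29, 95% interval −0.03 to 1.18, limma adjusted p = 0.542). Without starved 2, which held the best of the ranks, it was 0.36. At the Slc2a1 site 19.9 kb outside the gene the ranks were 10059, 9651 and 14224 in fed and 14100, 16566 and 18134 in starved lists, a difference of −0.54 (SE 0.28, −1.13 to 0.04, limma adjusted p = 0.555) with overlapping groups. The other 11 sites differed by −0.16 to 0.36. Of the 14 differences 10 were above 0 and 4 below, with a median of 0.10, and the median over all tested sites was −0.02. Of the 14 intervals, 13 included 0.

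**Figure D5:**
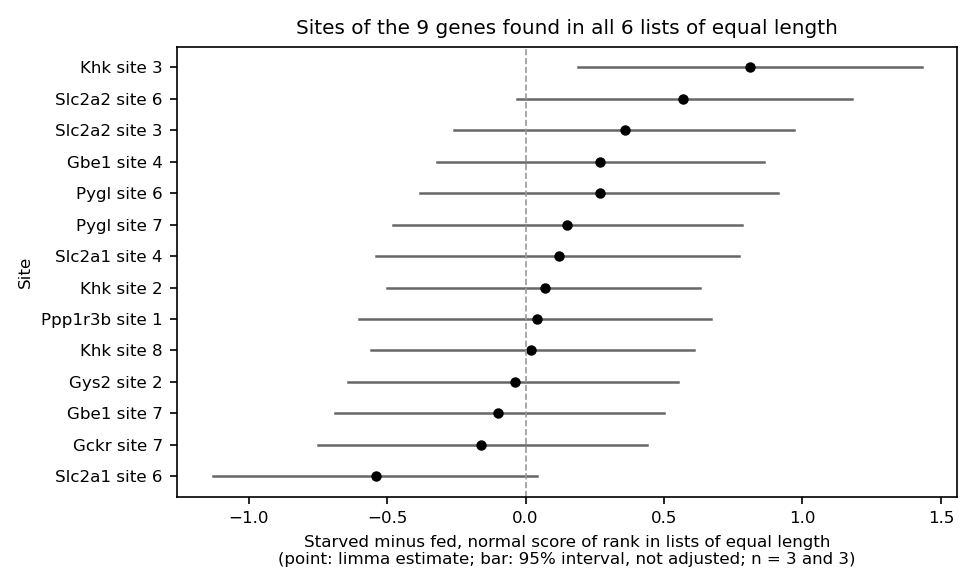
Difference in normal score of rank, starved minus fed, for the 14 sites of the 9 genes found in all 6 lists of equal length (points are limma estimates, bars unadjusted 95% intervals, 3 libraries per group). The interval at the site over the Khk start (site 3) runs from 0.19 to 1.43 and lies above 0; the other 13 include 0.

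Called peaks were narrower in starved than in fed libraries at the same sites. The part of depth and list length in peak width was not tested. At the site over the Khk start the called peak was 1271, 1420 and 1655 bp wide in fed and 661, 415 and 615 bp wide in starved libraries. At the strongest Slc2a2 site it was 853, 514 and 1010 bp against 613, 319 and 435 bp, where starved 1 was wider than fed 2. Of the 16 sites called in all 6 libraries, 15 had every starved peak narrower than every fed peak, and so did 90.4% of all such sites. The starved to fed ratio of mean width had a median of 0.52 at these genes and 0.50 over all sites.

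Position split the sites of the 9 genes evenly. Of the 56, 27 lay inside their gene, 25 outside and 4 over a gene end, and 11 had their midpoint within 1 kb of an end. Of the 16 sites in all 6 libraries, 9 lay outside and 6 inside; of the 10 fed-only sites, 5 outside and 4 inside. Sites in all 6 libraries had a median length of 722 bp, fed-only sites 371.5 bp and those called in fewer than 3 fed libraries 233 bp. A site spans all the peaks merged into it, so its length can grow with the number of libraries that call it. Over all sites the first 2 medians were 827 and 346 bp.

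Another 48 genes of glycogen, hexose transport and fructose or galactose metabolism gave a similar share. Their 304 sites included 158 called in all 3 fed libraries, of which 44 (27.8%, exact 95% interval 21.0 to 35.5) had no starved peak. This interval, too, covers counting error only. At 30 of the 48 genes every starved count lay below every fed count and at 0 above, beside 48.8 and 0.0% of all protein-coding genes. The median difference was −2.33 sites, against −1.67 over all protein-coding genes. Among genes of glycogen synthesis 11 of 27 fed sites had no starved peak, of breakdown 10 of 29, of the phosphatase and its targeting 6 of 21, of hexose transport 7 of 31, of hexokinases and glucose release 4 of 21 and of fructose, polyol and galactose metabolism 6 of 29, beside 29.1% over the genome. These groups were not tested against each other.

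Gyg, glycogenin, which primes a new glycogen particle, and Stbd1, which tethers glycogen to membranes, were the 2 genes whose only site called in all 3 fed libraries had no starved peak (mean fed percentiles 38.7 and 28.1). In the following, the best-ranked site of a group is the one with the highest mean percentile over all libraries that called it. Gys1, the muscle isoform of glycogen synthase, held the best-ranked site of the synthesis genes (95.2 in fed and 98.6 in starved lists), and Gsk3b, a kinase that inhibits glycogen synthase, had the most sites, 13. Among breakdown genes, Pygm, the muscle phosphorylase, had the best-ranked site (97.3 in fed and 92.3 in starved lists) and 11 sites, while a site of Gaa, the lysosomal enzyme that degrades glycogen, stood higher in fed lists alone (97.7 and 85.1). Ppp1ca, a catalytic subunit of the phosphatase, had both the best-ranked site of its group (95.4 and 90.7) and the most, 9, although a site of Nhlrc1, which makes the ubiquitin ligase malin, stood higher in starved lists (92.2 and 92.8). Slc2a5, the fructose transporter GLUT5, held the best-ranked site of the transporters (97.1 and 95.5) and, with Slc2a3, the most, 11. Slc37a4, the transporter that brings glucose 6-phosphate to glucose-6-phosphatase, had the best-ranked site of its group (95.9 and 82.3) and, like G6pc, 9 sites.

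Genes elsewhere with nearly the same count in each of the 6 libraries were common. For Slc2a2, Slc2a1, Gys2, Gbe1, Ppp1r3b and Gckr at least 1 protein-coding gene had identical counts in all 6 (8, 3, 41, 3, 15 and 8 genes), the closest in window length being Znhit6, Eftud2, Zbtb44, Maml1, Cyp4f37 and Fam71f2. For Khk the nearest was Naglu, which had 1 site fewer, in fed 2. For Pygl it was Fbxo47, with 1 site more in starved 2, and for Ppp1r3c Gm39270, with 1 more in starved 3.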

How the data were processed

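CTCF ChIP-seq peak lists of 6 liver libraries (3 fed, 3 starved) were used, 1 per library and not pooled; groups and replicate numbers came from the sample titles. Each deposited list gave a position and a score per peak. No source says which statistic this score is; the lowest was 2.00 to 2.10 in every list. The genome was mm10, per the submitters' processing notes. These notes name MACS2, HOMER, BWA 0.7.5a, bedtools 2.17, SAMtools and FastQC without their roles. Depth, the use of inputs and the treatment of duplicates were not stated; a list's length depends on depth and enrichment.

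Gene bounds and promoters came from RefSeq (GRCm38.p6); all 9 genes and 48 further pathway genes matched by symbol. Gene ends without a promoter entry carry no strand. The genes, lists and tests were chosen with earlier results of these data known. Given in full were each gene's best site, sites within 1 kb of a gene end and sites called in 3 fed and no starved libraries or the reverse; likeness was the sum of absolute differences in sites per library. Further pathway genes were named where no site called in all 3 fed libraries had a starved peak, or for the best-ranked or most sites of their group; some that met this rule are not reported here. Gaa and Nhlrc1 were named after their values were seen. Ranks were compared by limma 3.58.1 (R 4.3.3), counts by exact permutation. Scripts were tested on simulated data. Other computations ran in Python 3.11.15 (scipy 1.17.1, pandas 2.3.3, numpy 2.4.6), plots in matplotlib 3.10.9.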

Additional observations from a re-analysis of the deposited data

How the results depend on the processing

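At the 9 genes the share of sites called in all 3 fed libraries that lacked a starved peak stayed inside its interval under most settings. It was 32.1 and 26.7% with windows of 5 and 50 kb. With peaks merged within 500 bp or trimmed to 200 bp it was 29.4 and 28.6%. It was 37.2% with at least 2 of 3 fed libraries and 28.6 to 35.7% without 1 library. The share was 0.0% with lists of equal length and 47.8% when only peaks above a score of 30.4 were counted, beside 1.2 and 35.6% over all sites. At the 48 further genes it was 1.3% with lists of equal length, 41.9% with at least 2 of 3 fed libraries and 27.8 to 40.1% without 1 library. Over all sites it was 41.6% with at least 2 of 3 fed libraries and 29.6 to 39.5% without 1 library. The number of genes with fed and starved counts apart was 6 to 8 of 9 without 1 library. It was 0 with lists of equal length, where fewer peaks enter and every list has the same number. Among all protein-coding genes, 49.2 to 60.2% had every starved count below every fed count without 1 library, and 1.16% in lists of equal length. For none of the 9 genes did the sign of the difference in sites turn, and at 6 it was 0 with lists of equal length.

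Over all tested sites, 3 passed limma's threshold, 1 with percentiles, 1 with lists of 11963 peaks, 33 when re-ranked over sites in all 6 full lists and 0 to 3 without 1 library; the cause was not tested. With the replicate number as a block it was 25. Same-numbered libraries did not deviate together in rank (correlations −0.022 to 0.011), and not every library correlated best with its own number. Whether the numbers pair the libraries in some other way is not stated, and these correlations cannot decide it. No site of the 9 genes passed under any of these settings. Leaving out 1 library turned the sign of small differences: Pygl −0.01 to 0.43 and −0.09 to 0.31 at its 2 sites, Gbe1 −0.30 to 0.03 at the far end, Slc2a1 −0.11 to 0.39 at the strongest site, Khk −0.13 to 0.16 at the Cgref1 site, Gys2 −0.19 to 0.18 and Ppp1r3b −0.16 to 0.29. The depth of the libraries is unknown.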
